A study of Homo sapiens with 20 samples.

Results

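Among the RD xenograft tumors of the series, 4 carried abundant transcripts of the mature muscle contractile apparatus and 5 carried little of them. The muscle-rich tumors were RD TLE3KO 2 and RD control 1, 4 and 5. The muscle-poor tumors were RD TLE3KO 1, 3 and 4 and RD control 2 and 3. Together they are 9 of the 20 tumors of the series. The classes were chosen by the sarcomere transcript levels of these same libraries, represented here by ACTA1, CKM, MYL1 and TNNT3, so every difference between them is a description without a test. The tenth RD tumor, RD TLE3KO 5, was left in neither class because its library is shallow.

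RD is a human cell line from a fusion-negative embryonal rhabdomyosarcoma, and SJRH30 is a human line from a fusion-positive alveolar one. Cells of each line, either with a knockout of TLE3, which encodes a transcriptional corepressor of the Groucho family, or with a non-targeting control, were grown as grafts in NOD/SCID mice. Each line gave 5 knockout and 5 control tumors, which were taken when the control tumors had grown to the permitted limit and then flash frozen. Poly(A)-selected RNA was sequenced with a kit that is not stated to mark the strand, after extraction with 1 of 2 kits that is not given per tumor, and no litter, cage, guide or clone is named. The labels do not say that each tumor came from its own mouse, so the p-values below measure the spread between these libraries.

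Rhabdomyosarcoma cells resemble skeletal myoblasts that express the lineage regulators MYOD1 and MYOG without completing differentiation. In normal muscle, MYOD1 and MYOG act on E-boxes of muscle genes, myoblasts leave the cell cycle and fuse, and the fibers then build sarcomeres of actin thin filaments and myosin thick filaments anchored at Z-discs. Fibers switch from developmental myosin isoforms to the adult fast and slow isoforms as they mature. A tumor piece can also hold muscle of the host, and in bulk RNA fewer cells of a type and less RNA per cell cannot be told apart. The processing notes mention no step that removes mouse reads, so muscle transcripts of the graft and of the host cannot be told apart either.

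The deposited values are the authors' normalized counts, which summed to 26.1 M to 30.1 M in muscle-rich tumors and 29.6 M to 33.3 M in muscle-poor tumors. A muscle-rich library had 40477 to 42412 genes above 0, and a muscle-poor library had 39833 to 42319. Mitochondrially encoded genes took 5.59% to 8.38% of the sum in muscle-rich and 3.34% to 8.69% in muscle-poor tumors, against 32.4% in RD TLE3KO 5. No pair of the 9 libraries shared more than 0.35% of identical values among genes of at least 100, so none was a copy of another. The myoblast lineage was present throughout, with MYOD1 at 1363 to 3649 normalized counts in muscle-rich and 1492 to 3039 in muscle-poor tumors. TLE3 itself had 1357 normalized counts in RD TLE3KO 2 and 1465, 1032 and 1547 in the muscle-poor knockout tumors, against 1345, 1270 and 1809 in the muscle-rich and 1810 and 2622 in the muscle-poor control tumors. Knockout and control values overlapped, and since the edited site is not given, the level of the whole transcript does not check the label.

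The promoters of 5 genes with large differences in the split are shown, chosen after the reference table had been seen. Genes with larger differences than that of MYH2, PVALB among them, are not shown. Each window runs from 250 bases before to 50 bases after the RefSeq start site on GRCh38.p14, and all 5 genes lie on the minus strand. ACTA1 is at chr1:229434045-229434344, CKM at chr19:45322826-45323125, MYH1 at chr17:10518493-10518792, MYH2 at chr17:10549609-10549908 and MYH4 at chr17:10469510-10469809. Capitals mark the E-box letters CAGCTG and the letters TATAAA, the second also as the reverse complement TTTATA; the E-box letters CAGGTG, or CACCTG in reverse, were searched too and are in none of the 5.

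ACTA1: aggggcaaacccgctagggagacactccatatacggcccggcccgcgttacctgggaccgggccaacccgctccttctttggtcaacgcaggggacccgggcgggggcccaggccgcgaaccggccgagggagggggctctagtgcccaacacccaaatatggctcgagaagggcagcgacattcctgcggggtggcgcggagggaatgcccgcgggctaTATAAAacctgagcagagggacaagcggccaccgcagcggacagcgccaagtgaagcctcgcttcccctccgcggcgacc
CKM: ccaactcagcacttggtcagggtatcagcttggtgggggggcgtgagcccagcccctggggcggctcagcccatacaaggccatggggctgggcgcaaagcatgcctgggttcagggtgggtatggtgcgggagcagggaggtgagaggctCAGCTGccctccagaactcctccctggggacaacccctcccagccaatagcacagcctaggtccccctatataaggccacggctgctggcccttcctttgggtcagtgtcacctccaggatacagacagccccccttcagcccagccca
MYH1: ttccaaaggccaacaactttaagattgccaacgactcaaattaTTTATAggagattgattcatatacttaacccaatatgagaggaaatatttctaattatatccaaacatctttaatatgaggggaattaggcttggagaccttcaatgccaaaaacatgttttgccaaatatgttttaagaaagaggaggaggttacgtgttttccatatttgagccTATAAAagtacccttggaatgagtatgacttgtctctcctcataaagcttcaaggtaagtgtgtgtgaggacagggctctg
MYH2: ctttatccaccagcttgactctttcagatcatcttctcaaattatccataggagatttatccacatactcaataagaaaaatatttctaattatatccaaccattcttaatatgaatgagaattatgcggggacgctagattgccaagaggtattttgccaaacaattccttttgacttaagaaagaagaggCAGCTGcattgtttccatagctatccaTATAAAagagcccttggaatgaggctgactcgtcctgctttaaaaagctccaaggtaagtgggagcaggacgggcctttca
MYH4: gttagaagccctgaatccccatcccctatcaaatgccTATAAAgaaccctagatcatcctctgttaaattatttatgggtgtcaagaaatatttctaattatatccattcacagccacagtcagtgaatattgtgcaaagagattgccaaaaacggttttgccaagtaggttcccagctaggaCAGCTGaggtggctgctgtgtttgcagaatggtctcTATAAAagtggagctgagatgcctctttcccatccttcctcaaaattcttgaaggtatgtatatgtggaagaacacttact

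CAGCTG, an E-box sequence that is its own reverse complement, occurred in the windows of CKM, MYH2 and MYH4 and in neither of the others. TATAAA was found on either strand in ACTA1, MYH1, MYH2 and MYH4. Motifs were counted on both strands over 27305 promoter windows, keeping the first window that the reference table lists for each gene symbol. Of these windows, 17.7% held CAGCTG, 20.6% held CAGGTG, 14.05% held CATTCC, the letters of the muscle MCAT element, and 12.0% held TATAAA. The genes higher in the muscle-rich tumors had 193 windows in that table, of which 24.9% held CAGCTG, 24.9% held CAGGTG, 16.1% held CATTCC and 21.2% held TATAAA. Among them, the genes with a log2 difference of at least 4 had 34 windows, of which 35.3% held CAGCTG, 26.5% held CAGGTG, 32.4% held CATTCC and 52.9% held TATAAA. These letters are a description of the windows and were not tested as binding sites.

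The marker genes separated the classes by wide margins, as the rule requires. Tumor values stand in the order TLE3KO 2, control 1, control 4 and control 5 for the muscle-rich class and TLE3KO 1, 3 and 4, control 2 and control 3 for the muscle-poor class. ACTA1, the alpha-actin of skeletal muscle thin filaments, had 28519, 44688, 22152 and 9183 normalized counts in muscle-rich tumors, against 1233, 321, 243, 53 and 15 in muscle-poor tumors. CKM, the muscle creatine kinase, had 54823, 69751, 36032 and 8798 in muscle-rich tumors, against 513, 228, 173, 76 and 23 in muscle-poor tumors. In both genes control 1 was the highest and control 5 the lowest muscle-rich tumor, and TLE3KO 1 was the highest muscle-poor tumor. MYL1, a fast myosin light chain, had 10690, 17370, 9416 and 1687 in muscle-rich tumors, against 300, 84, 32, 38 and 8 in muscle-poor tumors. TNNT3, the fast skeletal troponin T, had 37302, 50410, 24515 and 6021 in muscle-rich tumors, against 1220, 542, 676, 257 and 578 in muscle-poor tumors.

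**Figure D1:**
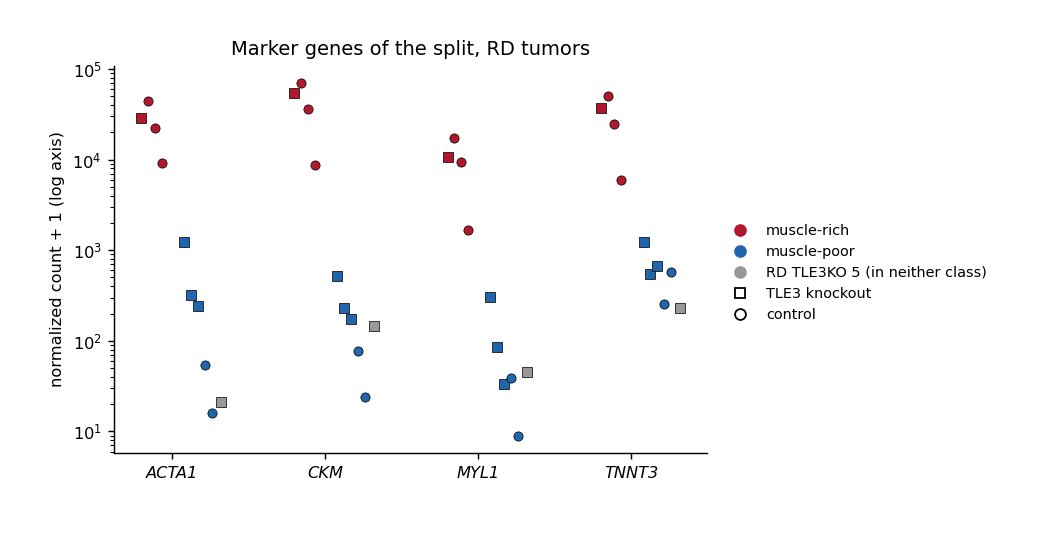
Normalized counts plus 1 (log axis) of the 4 marker genes in the RD tumors, each point 1 library, with squares for TLE3 knockout and circles for control tumors. Every muscle-rich point lies above every muscle-poor point, and RD TLE3KO 5, drawn in gray, lies at 20 for ACTA1 and 143 for CKM.

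With the knockout label as a covariate, the difference of muscle-rich minus muscle-poor tumors on the scale of log2(value + 1) was 8.12 for ACTA1, a fold of 278, and it was 8.70 for CKM, 7.82 for MYL1 and 5.64 for TNNT3. The mean log2 level of the 4 markers was 14.78, 15.31, 14.34 and 12.39 in the muscle-rich tumors, against 9.44, 7.92, 7.46, 6.33 and 5.23 in the muscle-poor tumors. Control 5 was thus the tumor just inside the muscle-rich class, and TLE3KO 1 was the one just outside it. RD TLE3KO 5 had a marker mean of 6.22. Among control tumors alone the ACTA1 difference was 9.47, and among knockout tumors alone, where RD TLE3KO 2 is the only muscle-rich tumor, it was 5.96. These separate values were added after the data had been seen.

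Across the 31576 genes with a mean of at least 10 normalized counts, 735 genes (2.33%) were higher in muscle-rich tumors and 55 (0.174%) were lower. A gene counted as higher or lower where the classes did not overlap and the log2 difference was at least 1 in size. The median difference of all genes was -0.13. Because the classes were drawn from these libraries, neither count was tested. Of the 735 genes, 552 were highest in control 1 among the muscle-rich tumors and 610 were lowest in control 5, while 152 were highest in TLE3KO 1 among the muscle-poor tumors. Among the 99 genes with a log2 difference of at least 4, these numbers were 84, 99 and 48. All 4 markers had the order control 1, TLE3KO 2, control 4 and control 5, and 57 of the 99 genes had it in full. Without control 5, the weakest of the muscle-rich tumors, the count of higher genes was 1535. Leaving out single libraries moved the count of lower genes by more than 1.5 times in 6 cases, to 268 without TLE3KO 2, 153 without TLE3KO 1, 84 without TLE3KO 3, 163 without control 5, 116 without control 2 and 100 without control 1.

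Protein-coding genes made up 250 of the 735 genes, and 384 were pseudogenes, a count made after the data had been seen. Of the 4095 pseudogenes with a mean of at least 10, 9.38% were higher and 13 were lower, with a median difference of 0.29. Reads of a pseudogene and of its parent gene, whether human or mouse, can be assigned to either, so these values are uncertain. Of the 485 non-coding genes among the 735, pseudogenes included, 480 were found in GENCODE 29, and 43 of those overlapped a coding gene on either strand that was also higher.

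**Figure D2:**
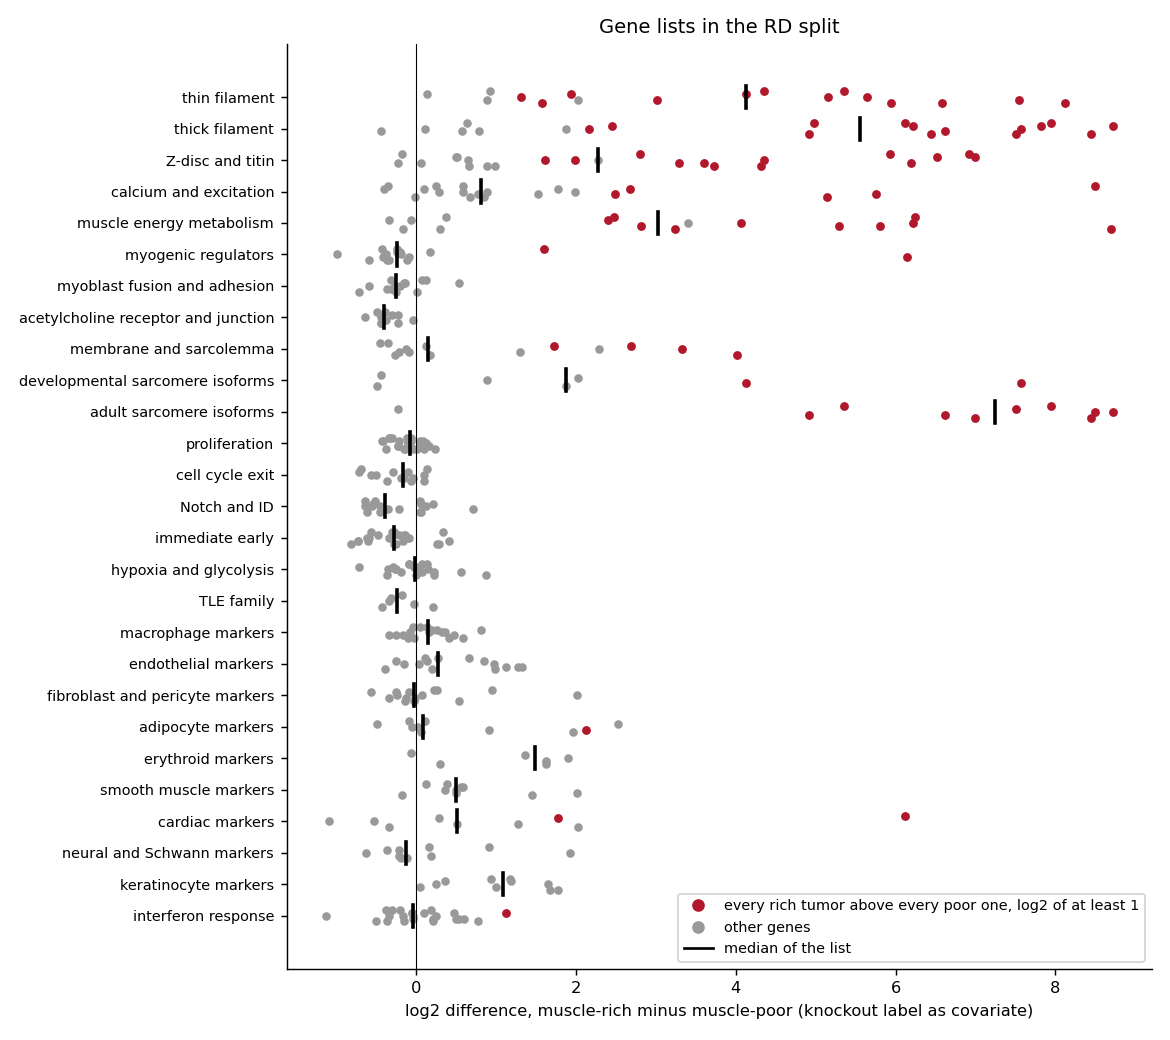
Log2 difference of muscle-rich minus muscle-poor RD tumors (knockout label as covariate) for every gene of 27 lists, each point 1 gene, in red where the classes did not overlap and the difference was at least 1, with a bar at the median. The thin filament, thick filament, energy and calcium lists each hold a gene beyond 8, namely ACTA1, MYH4, CKM and PVALB. ACTA1 and CKM are markers of the split, and the markers are counted in their lists. Medians are 4.12 for the thin filament and 5.55 for the thick filament, while proliferation genes lie around -0.08.

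Thin filaments carry actin, tropomyosin, the troponins, which give the filament its calcium switch, and nebulin along their length. Of 17 thin filament genes, 13 were higher in muscle-rich tumors, none was lower, and the median difference was 4.12. The markers ACTA1 and TNNT3 are among the 17. The fast troponin C gene TNNC2 had 38411, 53119, 22201 and 5442 normalized counts in muscle-rich tumors, against 496, 371, 316, 47 and 92 in muscle-poor tumors. TNNC1, the slow and cardiac troponin C, had 4463, 5823, 2208 and 418 in muscle-rich tumors, against 13, 20, 18, 34 and 31 in muscle-poor tumors. The log2 differences were 7.55 for TNNC2 and 6.58 for TNNC1, so that both a fast and a slow form were higher. Tropomyosin 1 (TPM1) differed by 5.15, fast troponin I (TNNI2) by 5.35 and slow troponin I (TNNI1) by 4.12. The filament regulators LMOD2, LMOD3 and TMOD4 differed by 5.94, 3.01 and 4.35. Smaller differences were seen in NEB, the nebulin gene, with 1.30, in TNNT1 with 1.57 and in TPM2 with 1.93. ACTC1, the cardiac actin that fetal muscle also uses, had 2636, 5201, 3854 and 2101 in muscle-rich tumors, against 4376, 3769, 1060, 1506 and 1126 in muscle-poor tumors. Those ranges overlapped, and ACTA1 and ACTC1 are close paralogs whose reads may be shared.

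Thick filament genes, which encode the myosin motor and the proteins that hold it, were higher in 14 of 20 cases and lower in none, with a median of 5.55. The marker MYL1 is among the 20. MYH1, an adult fast myosin heavy chain, had 33410, 47370, 15789 and 5482 normalized counts in muscle-rich tumors, against 386, 235, 54, 38 and 25 in muscle-poor tumors. MYH4, the fast IIb isoform that limb muscle of mice uses more than that of humans, had 35416, 33985, 19732 and 7477 in muscle-rich tumors, against 266, 104, 51, 44 and 24 in muscle-poor tumors. MYH4 had the largest difference of the myosins, 8.72, a fold of 423, while MYH1 differed by 8.45 and MYH2, another adult fast isoform, by 6.62. MYH7, the slow and cardiac isoform, had 8437, 10296, 2595 and 1186 in muscle-rich tumors, against 25, 12, 36, 24 and 28 in muscle-poor tumors. The perinatal isoform MYH8 had 10563, 13341, 5234 and 1632 in muscle-rich tumors, against 116, 62, 40, 29 and 16 in muscle-poor tumors. Log2 differences were 7.50 for MYH7 and 7.57 for MYH8, and no muscle-poor tumor came near the lowest muscle-rich one. MYH3, the embryonic isoform, had 7040, 8515, 3833 and 1570 in muscle-rich tumors, against 3170, 1659, 1618, 686 and 1381 in muscle-poor tumors. Its difference was 1.87 and its classes overlapped, since control 5 lay below 3 of the muscle-poor tumors. Among the other thick filament genes, the light chains MYL2, MYL3 and MYLPF differed by 7.95, 6.44 and 6.22, and the myosin-binding proteins MYBPC1 and MYBPC2 by 4.98 and 4.91. The M-band genes MYOM1 and MYOM2, which tie thick filaments together, differed by 2.16 and 2.44. MYL4, an embryonic light chain, differed by -0.45 with overlapping classes.

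On a scale of normalized counts per kilobase of exon, the adult fast myosins were the most abundant of 6 myosin heavy chain genes in every muscle-rich tumor. In RD TLE3KO 2, MYH4 had 5887, MYH1 5546 and MYH2 4118 per kilobase, followed by MYH8 with 1749, MYH7 with 1386 and MYH3 with 1053. Control 5, the weakest of the class, had 1243 for MYH4, 910.0 for MYH1, 858 for MYH2 and 235 for MYH3 per kilobase. In the muscle-poor tumors MYH3 came first in all 5, with 474, 248, 242, 103 and 207 per kilobase. The next level in those tumors was MYH2, with 112, 43.3, 17.7, 25.2 and 21.0 per kilobase. The leading isoform was therefore an adult one in the muscle-rich class and the embryonic one in the muscle-poor class. Near-identical stretches among the myosins of chromosome 17 can trade reads, so the order within the adult fast isoforms is uncertain. MYHAS, an antisense transcript at chr17:10383144-10623886 on the plus strand across this cluster, differed by 7.10, and without strand its reads cannot be told from those of the myosins.

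**Figure D3:**
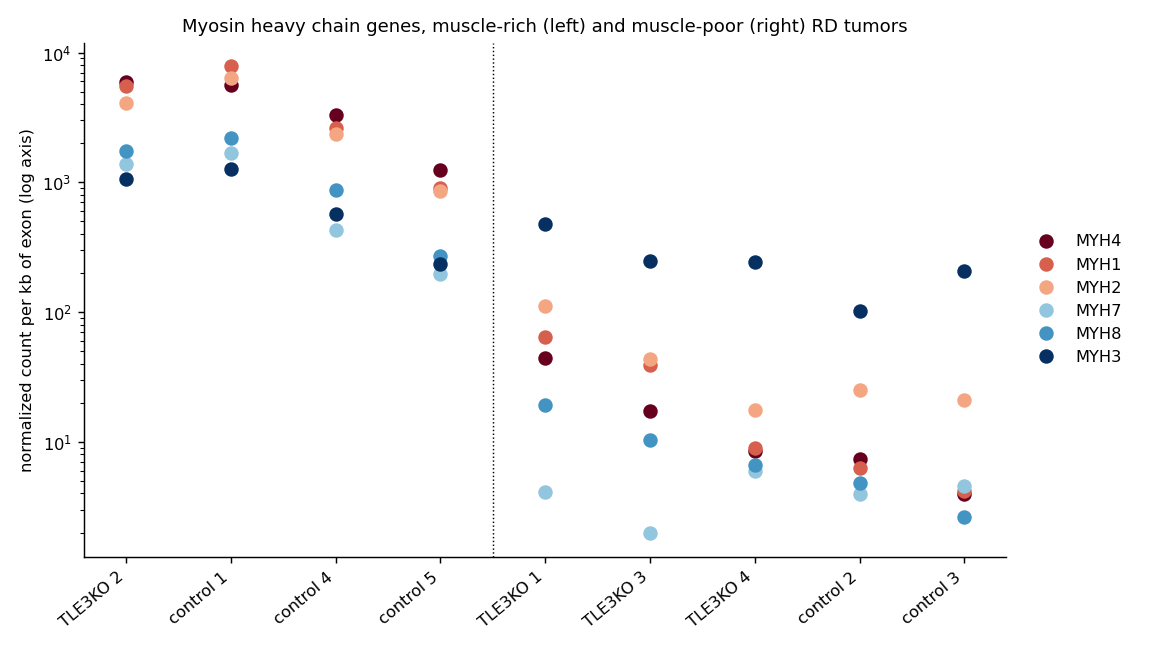
Normalized counts per kilobase of exon (log axis) of 6 myosin heavy chain genes in each muscle-rich (left of the dotted line) and muscle-poor (right) RD tumor. MYH3 is the highest gene in all 5 muscle-poor tumors, at 103 to 474, and lies below MYH4, MYH1 and MYH2 in all 4 muscle-rich tumors.

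Z-disc genes, which anchor the thin filaments and the titin spring, were higher in 13 of 23 cases and lower in none, with a median of 2.28. Titin (TTN), which spans from Z-disc to M-band, had 37046, 37612, 21005 and 4423 normalized counts in muscle-rich tumors, against 2121, 1536, 939, 787 and 1018 in muscle-poor tumors. Its difference was 4.31, and the antisense gene TTN-AS1, whose reads cannot be told from those of titin without strand, differed by 4.41. Larger differences were seen in ACTN3, the alpha-actinin of fast fibers, with 6.99, in MYOZ1, a calcineurin-binding protein, with 6.91, in MYOT, myotilin, with 6.51 and in TCAP, the titin cap, with 6.19. ACTN2, the alpha-actinin of all fibers, had 7158, 8875, 3146 and 1024 in muscle-rich tumors, against 1206, 748, 932, 684 and 1017 in muscle-poor tumors. Its control 5 value lay below that of TLE3KO 1, so it was not among the higher genes. Desmin (DES), an intermediate filament protein made already in myoblasts, had 6807, 11317, 6127 and 6341 in muscle-rich tumors, against 4672, 5140, 5120, 4643 and 6061 in muscle-poor tumors. The desmin difference was 0.49, below the size the rule requires.

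Calcium handling and excitation genes were a mixed group, with 5 of 20 higher, none lower and a median of 0.81. The 5 were PVALB, ATP2A1, CASQ1, TRDN and CACNA1S. PVALB, parvalbumin, a calcium buffer abundant in fast fibers of rodents, had 24789, 27260, 15771 and 3028 normalized counts in muscle-rich tumors, against 251, 59, 53, 43 and 13 in muscle-poor tumors. ATP2A1, the calcium pump of the fast sarcoplasmic reticulum, had 26899, 35820, 23242 and 7343 in muscle-rich tumors, against 739, 532, 775, 484 and 654 in muscle-poor tumors. Their differences were 8.50 and 5.13, and CASQ1, the calcium store protein calsequestrin, differed by 5.75. Triadin (TRDN) differed by 2.68 and CACNA1S, the voltage sensor, by 2.48. RYR1, the release channel that the voltage sensor opens, had 9853, 8559, 4671 and 3589 in muscle-rich tumors, against 3997, 2956, 5635, 3604 and 5116 in muscle-poor tumors. The RYR1 values overlapped, with a difference of 0.67.

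Muscle energy genes, the marker CKM among them, were higher in 10 of 16 cases and lower in none, with a median of 3.02. PYGM, the muscle glycogen phosphorylase, had 7012, 8790, 5728 and 1551 normalized counts in muscle-rich tumors, against 160, 108, 57, 49 and 56 in muscle-poor tumors. MB, the oxygen store myoglobin, had 5156, 7996, 5741 and 664 in muscle-rich tumors, against 134, 78, 35, 39 and 40 in muscle-poor tumors. Differences were 6.25 for PYGM and 6.22 for MB. The AMP deaminase AMPD1 differed by 5.80, the muscle subunit COX6A2 of cytochrome oxidase by 5.29, the mitochondrial creatine kinase CKMT2 by 2.81 and the muscle enolase ENO3 by 2.40. COX8A, a ubiquitous subunit of the same oxidase, differed by -0.07.

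Adult and developmental isoforms were also listed apart, and both lists hold myosins described above. Of 10 adult isoform genes, 9 were higher, with a list median of 7.25. CHRNE, the adult subunit of the acetylcholine receptor, was the exception, with 123, 118, 59 and 79 normalized counts in muscle-rich tumors, against 150, 99, 68, 109 and 136 in muscle-poor tumors. Of 7 developmental isoform genes, MYH8 and TNNI1 were higher, and the list median was 1.87. CHRNG, the fetal receptor subunit, differed by -0.49 and overlapped.

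**Figure D4:**
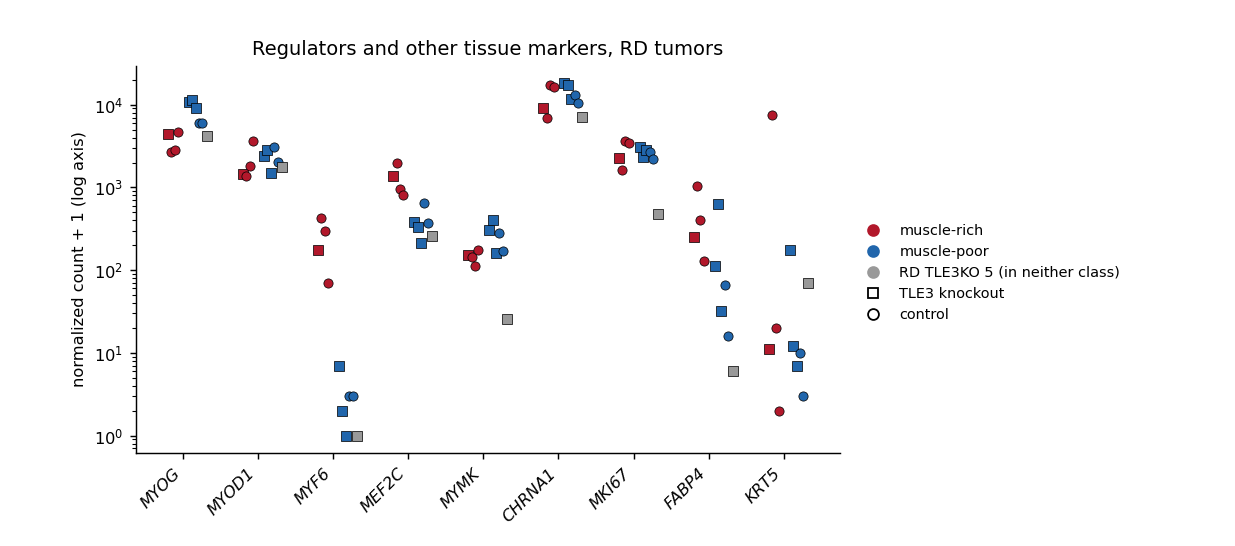
Normalized counts plus 1 (log axis) of 6 myogenic or junction genes, a proliferation marker, an adipocyte marker and a keratinocyte marker in the RD tumors, each point 1 library, with squares for TLE3 knockout and circles for control tumors. MYOG is the 1 gene shown whose 4 muscle-rich tumors, at 2716 to 4722, all lie below the 5 muscle-poor ones, and MYF6 separates the other way, at 68 to 431 against 0 to 6.

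MYOD1 and MYOG, which start the muscle program, did not follow the sarcomere genes, while MYF6 and MEF2C did. Of 16 myogenic regulators, MYF6 and MEF2C were higher, none was lower, and the median was -0.24. Over all genes 2.33% were higher and 0.174% lower. MYOG, the myogenin gene that drives entry into differentiation, had 4403, 2716, 2848 and 4722 normalized counts in muscle-rich tumors, against 10645, 11241, 9012, 6088 and 5942 in muscle-poor tumors. Its classes did not overlap and its difference was -0.997, just short of the size the rule requires. MYF6, a regulator that normal muscle expresses most in mature fibers, had 175, 431, 293 and 68 in muscle-rich tumors, against 6, 1, 0, 2 and 2 in muscle-poor tumors. MEF2C, a partner of the myogenic factors, had 1374, 1947, 944 and 812 in muscle-rich tumors, against 378, 332, 214, 643 and 370 in muscle-poor tumors. The differences were 6.14 for MYF6 and 1.60 for MEF2C, and the MYF6 value rests on 6 or fewer normalized counts in every muscle-poor tumor. MYOD1, the founding regulator of the lineage, had 1467, 1363, 1806 and 3649 in muscle-rich tumors, against 2401, 2820, 1492, 3039 and 2010 in muscle-poor tumors, with a difference of -0.37. PAX7, a marker of muscle stem cells, differed by -0.38, and both genes overlapped between the classes. Summed over the list, regulators reached 30173 to 39604 normalized counts in muscle-rich and 39545 to 51313 in muscle-poor tumors.

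Genes of the steps between commitment and the mature fiber were listed too. Over all genes 2.33% were higher and 0.174% lower. A list this short can thus hold none without standing apart from other genes. None of 15 fusion and adhesion genes was higher or lower, with a median of -0.26, and MYMK, the fusion protein myomaker, had 150, 144, 110 and 175 normalized counts in muscle-rich tumors, against 307, 408, 160, 284 and 170 in muscle-poor tumors. None of 12 acetylcholine receptor and junction genes was higher or lower either, with a median of -0.40. CHRNA1, the receptor's alpha subunit, had 9120, 6995, 17511 and 16381 in muscle-rich tumors, against 18218, 17094, 11847, 13236 and 10485 in muscle-poor tumors. Both genes overlapped between the classes. Of 14 membrane and sarcolemma genes 4 were higher, among them ANKRD2, a stretch-responsive protein, and the muscle RING-finger genes TRIM63 and TRIM54. The differences of these genes were 2.69, 4.02 and 3.33, while dystrophin (DMD) differed by 0.17.

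Proliferation genes, which cycling cells express, reached the rule in neither direction. None of 31 was higher or lower, and the median was -0.08, against -0.13 for all genes. With 2.33% of all genes higher and 0.174% lower, a count of none here and in the next lists is near that share. MKI67, a marker of cycling cells, had 2257, 1621, 3688 and 3470 normalized counts in muscle-rich tumors, against 3067, 2321, 2802, 2680 and 2191 in muscle-poor tumors. Its difference was 0.01, with RD control 1 the lowest and RD control 4 the highest of all 9 tumors. None of 14 cell cycle exit genes, 18 Notch and ID genes, 25 immediate early genes, 20 hypoxia and glycolysis genes or 6 TLE genes was higher or lower. Medians of these lists were -0.17, -0.40, -0.28, -0.02 and -0.25. Immediate early sums were 14510 to 24698 in RD TLE3KO 1 to 4 and 43330 to 60156 in RD control 1 to 5. Both labels occur in each class. For genes that follow the label in this way the rule on overlap cannot show a class difference. After median-of-ratios rescaling the proliferation median was 0.004 and the hypoxia median 0.07, so the sign of both depends on the scaling.

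Markers of other cell types were compared in the same way. None of 18 macrophage, 15 endothelial, 15 fibroblast and pericyte, 6 erythroid, 10 smooth muscle, 11 neural or 10 keratinocyte genes was higher or lower by the rule. Over all genes 2.33% were higher and 0.174% lower, so a count of none in lists of this size is near that share. Of 10 adipocyte genes, LPL was higher, with a difference of 2.13, and of 24 interferon genes XAF1 was, with 1.12. Cardiac markers gave 2 of 9, MYH6 and MYBPC3, of which MYH6 lies next to MYH7 and is nearly identical to it. Summed levels did not overlap between the classes for the cardiac list and, by a narrow margin, the smooth muscle list, while the other sums given here overlapped. The cardiac list summed to 2133 to 8058 normalized counts in muscle-rich and 1065 to 1388 in muscle-poor tumors, with NPPB at 0 in at least 1 of the 9. Its genes MYH6 and TNNT2 also stand in the thick and thin filament lists. The smooth muscle list summed to 9269 to 17142 in muscle-rich and 7150 to 9260 in muscle-poor tumors, and none of its genes was at 0. DES and CASQ2 of this list also stand in the skeletal muscle lists. DES, with the values given above, made up most of each sum, and without it the sums of the classes would overlap. Sums of the erythroid list were 5905 to 26634 in muscle-rich and 1209 to 8484 in muscle-poor tumors, again with no gene at 0. The adipocyte sums were 949 to 2713 in muscle-rich and 745 to 1905 in muscle-poor tumors. FABP4, the fat cell fatty acid carrier, had 250, 1034, 400 and 127 in muscle-rich tumors, against 112, 622, 31, 66 and 15 in muscle-poor tumors. Keratinocyte sums were 1169 to 26324 in muscle-rich and 910 to 2179 in muscle-poor tumors, with KRT1, KRT17 and IVL at 0 in at least 1 tumor. The value of 26324 was that of RD control 1 alone, and the other muscle-rich tumors had 1169 to 1293. Macrophage sums were 3964 to 12654 in muscle-rich and 3605 to 10881 in muscle-poor tumors. Endothelial sums were 3136 to 5503 in muscle-rich and 3134 to 3818 in muscle-poor tumors. The endothelial 5503 was also RD control 1 alone, with 3136 to 3675 in the other muscle-rich tumors. The part of these cell types in the muscle differences was not tested.

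Outside the lists, the 15 largest differences among genes with an official symbol and a mean of at least 100 were largely of muscle genes too. ABRA, an actin-binding protein of muscle, had 408, 2053, 1964 and 261 normalized counts in muscle-rich tumors, against 18, 2, 8, 6 and 7 in muscle-poor tumors. NRAP, a protein of myofibril assembly, had 3907, 4365, 1512 and 539 in muscle-rich tumors, against 94, 55, 51, 27 and 31 in muscle-poor tumors. The differences were 6.55 for ABRA and 5.76 for NRAP. CA3, the carbonic anhydrase of slow muscle, differed by 5.31, RPL3L, the striated muscle form of a ribosomal protein, by 4.75, and EEF1A2, the translation factor of mature muscle and neurons, by 4.64. DHRS7C, DDIT4L and PPP1R27 differed by 5.31, 5.08 and 4.76. MYH13, a myosin of eye muscle in the same cluster, differed by 4.81. The others were MYHAS, CA3-AS1 and TTN-AS1, which overlap muscle genes, and the pseudogenes ALDOAP1, ALDOAP2 and GAPDHP61. Among lower genes with a symbol and that mean, the rule gave KRT40, a hair keratin gene, and NPPC, the C-type natriuretic peptide. KRT40 had 95, 133, 167 and 199 in muscle-rich tumors, against 597, 648, 211, 246 and 253 in muscle-poor tumors, a difference of -1.21, which was -0.60 without RD TLE3KO 2. NPPC had 125, 96, 80 and 109 in muscle-rich tumors, against 589, 531, 223, 141 and 143 in muscle-poor tumors, a difference of -1.02. That of NPPC was -0.59 without RD TLE3KO 2, -0.97 with pseudocount 10 and -0.94 with rescaling.

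The SJRH30 tumors, which had no part in drawing the classes, were used to ask whether the same genes follow the markers in another line. No SJRH30 tumor was put in a class. Instead, each gene was fitted with limma against the mean log2 level of the 4 markers, with the knockout label as a covariate, over 9 libraries without the shallow SJRH30 control 3. The marker mean was 6.87, 9.02, 6.60, 5.22 and 9.42 in SJRH30 TLE3KO 1 to 5, against 8.57, 10.97, 13.82 and 7.19 in SJRH30 control 1, 2, 4 and 5. Control 4 was the highest, within the range of the muscle-rich RD tumors, and the others reached 10.97 at most. The libraries fitted were uneven. Mitochondrially encoded genes took 16.9% of the sum in SJRH30 TLE3KO 4, the lowest in markers, and 2.34% to 6.22% in the others. Normalized counts summed to 60.7 M in SJRH30 control 2 and 37.0 M to 48.0 M in the others. The fewest genes above 0, 37072, were in SJRH30 control 4, where the smallest value above 0 was 2.

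Of 29211 genes tested in SJRH30, limma called 29 (0.0993%) with a positive slope and 0 (0.0%) with a negative slope at an adjusted p below 0.05, the 4 markers not counted. At an unadjusted p below 0.05 there were 2048 positive and 1447 negative slopes. Among the 29 genes, 27 (93.1%) were also higher in the muscle-rich RD tumors, and those 27 were 4.74% of the 570 higher RD genes that could be tested in SJRH30. MYH3 and MYBPH were the 2 others. All 570 considered, 407 (71.4%) had a slope above 0, against 49.1% of all genes tested, and their median slope was 0.13, against -0.003 for all genes. SJRH30 control 4 was the highest library for all 29 genes. Without it 5 genes passed, without SJRH30 control 5 there were 13, and without SJRH30 TLE3KO 3 there were 48.

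PVALB had the smallest p of the genes called. It had 28, 217, 18, 12 and 278 normalized counts in SJRH30 TLE3KO 1 to 5, against 46, 634, 6257 and 8 in SJRH30 control 1, 2, 4 and 5. Its slope was 1.33 ± 0.09 log2 units per log2 unit of the marker mean (limma, SE, n = 9 libraries, adjusted p = 7.46e-07). MYH1 had 73, 384, 50, 33 and 426 in SJRH30 TLE3KO 1 to 5, against 222, 1751, 9266 and 46 in the control tumors. The MYH1 slope was 1.08 ± 0.08 (limma, adjusted p = 1.54e-06). MYH4 had 38, 200, 26, 44 and 184 in the knockout tumors, against 137, 1324, 13428 and 46 in the control tumors, with a slope of 1.06 ± 0.11 (limma, adjusted p = 0.000142). In all 3 genes the spread lay with SJRH30 control 4 far above, control 2 next, and the low knockout and control tumors intermingled. PVALB, MYH1 and MYH2 passed in all 9 limma fits that left out 1 library, MYH4 and TNNC2 in 8, and MYH8, PYGM and MB in 7. MYH3, also called in the main fit, passed in 6 of these fits, and MYH7 and CASQ1 in 5.

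By role, thick filament genes were called most often, with 10 of 19 tested, followed by 3 of 15 thin filament, 3 of 22 Z-disc, 3 of 15 energy and 2 of 19 calcium genes. Adult isoforms had 6 of 10 called and developmental isoforms 2 of 7. Other genes with slopes of about 1 were ACTN3 with 1.00 ± 0.11 (limma, adjusted p = 0.00018), MYH2 with 0.92 ± 0.09 and the light chain MYLPF with 0.78 ± 0.07. NRAP and MYHAS were called as well, with slopes of 0.79 and 0.80. MYH3 had a shallower slope of 0.46 ± 0.08 (limma, adjusted p = 0.0213), which was no longer called without SJRH30 control 4 (limma, adjusted p = 0.517). Genes with large RD differences that did not pass in SJRH30 included MYL2, with a slope of 0.74 (limma, adjusted p = 0.128), TNNC1 with 0.51 (adjusted p = 0.109), ATP2A1 with 0.44 (adjusted p = 0.133) and TTN with 0.12 (adjusted p = 0.428). TNNC1 and ATP2A1 did pass with pseudocount 10 (limma, adjusted p = 0.044 and 0.0489), without the knockout label (limma, adjusted p = 0.0202 and 0.00853) and against the mean of 3 sarcomere lists, which hold TNNC1 itself (limma, adjusted p = 0.00861 and 0.00364).

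None of the other lists had a gene called in SJRH30. Since 0.0993% of all 29211 genes tested were called, a count of none is near the share of all genes. MYOG had 8586, 5577, 12044, 13360 and 8339 normalized counts in SJRH30 TLE3KO 1 to 5, against 7299, 20823, 14014 and 6911 in SJRH30 control 1, 2, 4 and 5. Its slope was 0.05 ± 0.09 (limma, adjusted p = 0.772), so the order of MYOG seen in the RD classes had no counterpart past the test in SJRH30. The difference between the lines was not tested. Slopes were 0.15 for MYOD1 (limma, adjusted p = 0.442), 0.81 for MYF6 (adjusted p = 0.413), -0.10 for MEF2C (adjusted p = 0.47) and 0.14 for FABP4 (adjusted p = 0.72). MYF6 was at 0 in 3 of the 9 libraries, which limits what its slope can show. Of 36 genes lower in RD and tested in SJRH30, 19 had a slope below 0.

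**Figure D5:**
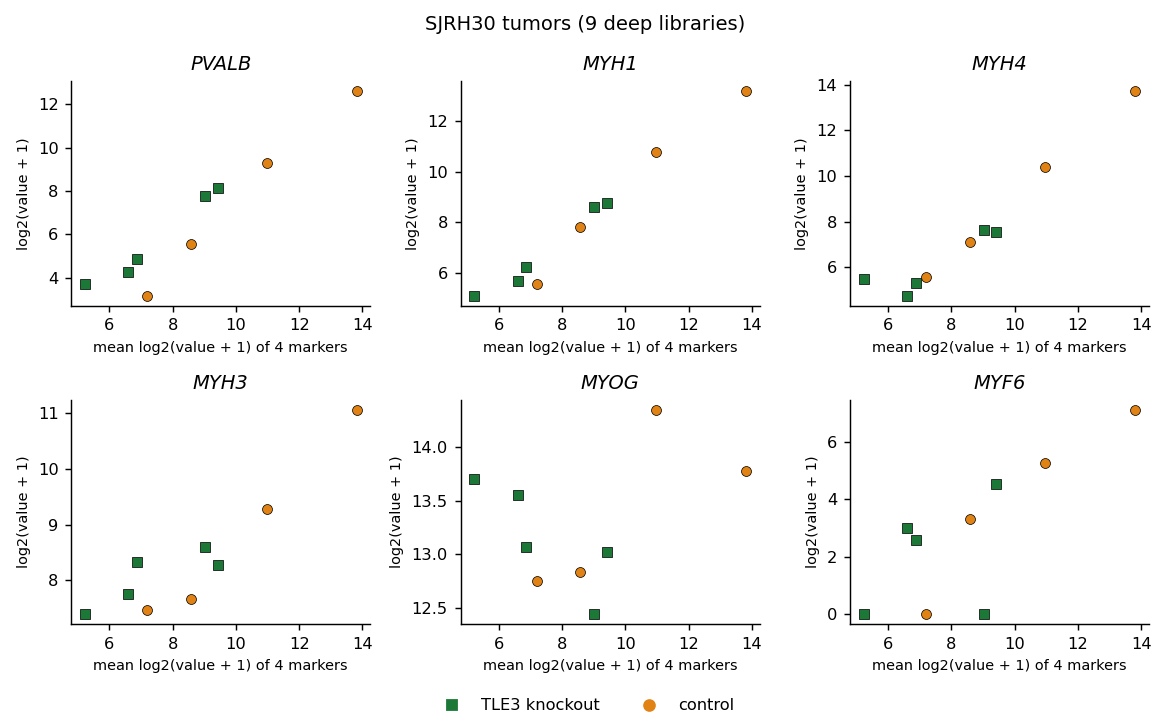
Log2(value + 1) of 6 genes against the mean log2(value + 1) of the 4 markers in 9 SJRH30 tumors, with squares for TLE3 knockout and circles for control tumors. PVALB, MYH1 and MYH4 have slopes of 1.33, 1.08 and 1.06, MYH3 has a slope of 0.46, and MYOG shows no order past the test.

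The classes were unevenly divided between the labels, with 1 knockout and 3 control tumors among the muscle-rich and 3 knockout and 2 control tumors among the muscle-poor. The knockout comparison in RD was therefore fitted with the class as a covariate. In that fit limma called 14 genes higher and 71 lower in TLE3 knockout tumors, 85 in all or 0.269% of 31576, at an adjusted p below 0.05. Without the class it called 36 higher and 105 lower, of which 14 and 68 were shared. The class was drawn from the values of these same libraries, so its p-values are not those of a covariate fixed in advance. For the marker ACTA1 the knockout effect was 2.61 with the class and -0.23 without it, neither of them called. An effect of the knockout on the class itself was not tested. FOSB, an immediate early transcription factor, had 34, 25, 43 and 48 normalized counts in RD TLE3KO 1 to 4, against 1234, 2776, 3793, 3001 and 1953 in RD control 1 to 5. FOSB fell by 6.25 ± 0.27 on the log2 scale (limma, SE, adjusted p = 3.01e-07) and KLF4, another immediate early factor, fell by 3.05 ± 0.26 (limma, adjusted p = 0.000452). Their differences between the muscle classes were -0.73 and -0.29. Each class holds both labels, so with label effects this large the rule on overlap cannot show whether these genes differ between the classes. TLE1, a paralog of TLE3, rose by 1.15 ± 0.18 in knockout tumors (limma, adjusted p = 0.0259). That call was lost without any 1 of RD control 2 and 4 and RD TLE3KO 1 to 4 (limma, adjusted p = 0.0545 to 0.254) and with the replicate number as a block (limma, adjusted p = 0.68). Leaving out any library other than RD control 1 or 3 moved at least 1 of the counts by more than 1.5 times, to between 0 and 8 higher and between 6 and 42 lower, with the lowest counts without RD control 2.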

How the data were processed

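RNA-seq of 20 xenograft tumors was used. Per the submitters' processing notes the tools were FastQC, fastp 0.20.1, STAR 2.7, featureCounts and edgeR with GRCh38 p7, and their order and settings are not given in the sources used here. The deposited score of each gene is a count that the authors had already normalized and then rounded, so depth in reads is unknown and no count model was run. Of the genes listed, 44294 have values. Groups come from the sample titles.

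All values were taken to log2(value + 1), without rescaling, for genes with a mean of at least 10 over the libraries of a fit. The class difference in RD is a least-squares coefficient with the knockout label as covariate. Slopes and knockout effects came from limma (version 3.58.1, under R 4.3.3) with its trend option, 2-sided, with Benjamini-Hochberg adjustment over all genes tested. The classes, the markers and the gene lists were chosen with earlier results of these data known. Named genes are list members, the 15 largest differences in each direction outside the lists (official symbol, mean of at least 100, past the rule) and the 10 smallest p in each direction for the slope. The 10 smallest p for a negative slope all missed the threshold and are not named. Gene positions are from GENCODE 29 on GRCh38. Promoters are from RefSeq, and the 5 printed were chosen after the reference table had been seen; TNNT3 has no entry used here. Alternatives were another pseudocount and filters, rescaling, a replicate block, other covariates, another marker mean and leaving out libraries.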

Additional observations from a re-analysis of the deposited data

Results flagged for a closer look

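Within each line and label, the highest or lowest tumor was compared with the others in groups of 4 or 5 by the gap to its nearest neighbor, on the log2 scale, for the genes named most and the summed lists. In 260 groups 20 gaps were large for the group. Of these, 13 were in RD TLE3KO 2, which was put in the muscle-rich class for its sarcomere transcripts. Those 13 are thus no count to set against the 1 in 20 groups that chance flags. The 7 in other tumors are a smaller share of the 260 groups than that, so their number is not above chance.

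RD TLE3KO 2 stood above the 3 other deep RD knockout tumors for several muscle genes. It had 8437 normalized counts of MYH7, against 12 to 36 in the others, 4463 of TNNC1 against 13 to 20, and 38411 of TNNC2 against 316 to 496. It also had 26899 of ATP2A1 against 532 to 775, 3907 of NRAP against 51 to 94, 1689 of RPL3L against 26 to 51 and 559 of TRIM63 against 29 to 42. Its summed level was 251309 for thin filament genes, 90576 for Z-disc genes, 150557 for energy genes, 180499 for adult isoforms and 5491 for cardiac markers, each above the others. Its summed myogenic regulators, 37715, lay below the 48787 to 51313 of the others. These values follow from the choice of the class and add nothing to it.

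RD control 1 had 7410 normalized counts of the basal keratin gene KRT5, against 1 to 19 in the other RD control tumors, and RD TLE3KO 1 had 174, against 6 to 11 in the other deep RD knockout tumors. The keratinocyte markers together summed to 26324 in RD control 1, against 910 to 1472 in the other control tumors. RD control 1 was also low for fusion and adhesion genes, at 26330 against 33465 to 36367, and for acetylcholine receptor and junction genes, at 17836 against 31122 to 34658.

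Among SJRH30 tumors, TLE3KO 4 was low for thick filament genes, at 3685 against 7714 to 9859 in the other knockout tumors. SJRH30 TLE3KO 3 was high for adipocyte markers, at 1641 against 309 to 477.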

How the results depend on the processing

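The count of 735 higher genes in the RD split stayed within 1.5 times under pseudocount 10, a value of at least 1 in 5 libraries, median-of-ratios rescaling, the replicate block and without the knockout label. It was 332 with a mean of at least 100, 1637 in control tumors alone, 2472 in knockout tumors alone and 699 to 1535 with 1 library left out. The 55 lower genes became 18 with pseudocount 10, 120 with a value of at least 1 in 5 libraries, 34 with rescaling, 3 with a mean of at least 100, 1201 in knockouts alone, 1023 in controls alone and 54 to 268 with 1 library left out. The analyses of knockouts and controls alone were chosen after seeing the data. The 29 positive SJRH30 slopes, 27 of them on genes higher in RD, became 178 and 64 without the knockout label, 11 and 11 with all 10 libraries, and 6 and 6 without SJRH30 control 4 and TLE3KO 4, the 2 farthest from the median marker mean. With 1 library left out they ranged from 5 to 48 and from 5 to 44. Negative slopes numbered 68 without the knockout label, 3 with the replicate block and 0 to 3 with 1 library left out. In the RD knockout comparison the 14 higher and 71 lower genes became 0 and 6 with the replicate block, 36 higher without the class, and 0 to 12 and 6 to 60 with 1 library left out. Rescaling moved the median of all RD differences by 0.08 and changed the sign of 4 list medians close to 0, those of proliferation, hypoxia, fibroblast and interferon genes. Whether equal replicate numbers mark pairs cannot be read from these values. Correlations of same-numbered tumors were -0.51 to -0.22 in RD and -0.21 to 0.07 in SJRH30, and no tumor correlated best with its own number. The muscle class was left in these correlations, and most same-numbered RD tumors fall in different classes. Under the replicate block 773 genes were higher and 64 lower in the RD split, and 31 SJRH30 slopes were positive, 24 of them on genes higher in RD. For the genes followed one by one, no value that had been called changed sign. Uncalled values changed sign for 8 RD differences, all of CHRNA1 or MKI67, for 22 SJRH30 slopes, and for the knockout effects of the 4 markers, which were -0.23 for ACTA1, -1.03 for CKM, -1.02 for MYL1 and -1.01 for TNNT3 without the class. RD differences stayed within the spread between tumors in 470 comparisons and moved in 6, and SJRH30 slopes kept their side of the threshold in 362, lost it in 35 and gained it in 10. Knockout effects kept it in 105 and lost it in 7, all of them for TLE1. Where a count moved, the cause was not tested. Depth in reads is not known from these values, and genes near 10 normalized counts are coarse.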

Other observations

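Pseudogenes made up 384 of the 735 genes higher in the muscle-rich RD tumors, and 5 of their families were looked at after the data had been seen. Of 27 pseudogenes of GAPDH, the glycolytic dehydrogenase, 23 were higher, with a median log2 difference of 3.28, while GAPDH itself differed by 0.74. Summed, these pseudogenes had 18370, 23406, 17652 and 4154 normalized counts in RD TLE3KO 2 and RD control 1, 4 and 5, against 998, 846, 440, 2014 and 941 in RD TLE3KO 1, 3 and 4 and RD control 2 and 3. The parent gene had 30324 to 58254 in muscle-rich and 16722 to 24659 in muscle-poor tumors. Of 6 pseudogenes of LDHA, a lactate dehydrogenase subunit, all 6 were higher, with a median of 3.45 and a parent difference of 0.56. For CYCS, cytochrome c, 8 of 11 were higher, with a median of 3.25, while the parent differed by -0.08. For VDAC1, a channel of the outer mitochondrial membrane, 5 of 8 were higher, with a median of 3.09 and a parent difference of 0.34. Nuclear copies of mitochondrially encoded genes were higher in 60 of 161 cases, with sums of 110285 to 397650 in muscle-rich and 85900 to 107723 in muscle-poor tumors. In the GAPDH, LDHA, CYCS and VDAC1 families the median pseudogene thus differed more than its parent, and the origin of these reads was not tested.

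A few further genes were also chosen after their values were seen, and they stand for no group: among other genes of respiration, COX8A differed by -0.07 and CYCS by -0.08. SLC25A4, the ADP/ATP carrier of heart and muscle, had 14181, 20727, 10162 and 3178 normalized counts in muscle-rich tumors, against 1024, 1125, 417, 1309 and 707 in muscle-poor tumors, a difference of 3.57. Differences were smaller for SDHB, a subunit of succinate dehydrogenase, with 1.32, ATP5F1B of the ATP synthase with 1.13, fumarase (FH) with 1.02 and PDHB of the pyruvate dehydrogenase with 1.10. CRYAB, a small heat shock protein that protects desmin and titin, had 7284, 11658, 7235 and 1235 in muscle-rich tumors, against 907, 805, 623, 252 and 223 in muscle-poor tumors. CRYAB differed by 3.90 and HSPB6, HSPB7 and HSPB8 by 4.35, 3.59 and 1.81. SLC2A4, the insulin-responsive glucose transporter of muscle and fat, differed by 4.01. In SJRH30, CRYAB had a positive slope on the marker mean of 0.42 (limma, adjusted p = 0.0474), while SLC25A4 had 0.26 (limma, adjusted p = 0.413) and SDHB 0.02 (adjusted p = 0.895).

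RD control 1, the tumor with the most muscle transcripts, also had 6933 normalized counts of KRT14, against 2 to 11 in the other RD control tumors. It had 9828 of HBA1 and 5696 of HBB, globin genes of red cells, against at most 5191 and 2990 in the other RD control tumors. HBA1 and HBA2 are near-identical copies, and their separate values are uncertain.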
